A study of Mus musculus with 6 samples.

Results

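The genes described here are 39 genes of the unfolded protein response and of ER-associated degradation, among 18193 genes measured in MIN6 cells, a line grown from a mouse insulinoma that keeps many traits of beta cells. They were chosen by name, as probe sets annotated to their symbols alone, and the brightest probe set, by its average across the 6 arrays, stands for each gene. On 3 arrays the cells had received siRNA to Hlxb9, a homeobox factor that beta cells and motor neurons use and that is now called Mnx1, and on 3 arrays a scrambled negative control siRNA. The cells were grown in low glucose medium with serum, both siRNAs were delivered by nucleofection together with a lipid reagent, and RNA was isolated 72 hours later. Only RNA from transfections with more than 75% knockdown on a western blot was hybridised, so the arrays were selected by that protein result, and the labels call the samples sorted subpopulations without naming a gate. The labels number the arrays 1 to 3 in each group and call the transfections independent, without saying which arrays share a culture or day. The question asked of these genes was whether their transcripts differed when Hlxb9 was reduced.

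The unfolded protein response adjusts the folding capacity of the endoplasmic reticulum (ER) to its load, and beta cells depend on it because they fold large amounts of proinsulin. The ER membrane sensors are IRE1 (encoded by Ern1), PERK (Eif2ak3) and ATF6 (Atf6). Active IRE1 splices the Xbp1 transcript, which then encodes a transcription factor for ER chaperones and degradation components. PERK phosphorylates a translation initiation factor, which favours translation of Atf4 and expression of its targets. ATF6 is cut in the Golgi and drives chaperone genes such as Hspa5. Proteins that fail to fold are carried back to the cytosol and destroyed, a process called ER-associated degradation.

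All 39 brightest probe sets lay above 5.16 log2, the median of all probe set means, on every array, with values from 6.68 to 13.29. Mnx1 itself read 7.53, 7.41 and 7.28 log2 after Hlxb9 siRNA, against 7.82, 7.50 and 7.77 after control siRNA, a difference of -0.29 ± 0.13 (SE, limma adjusted p = 0.659). The 9 measured beta cell markers, among them Ins2 and Pdx1, read between 9.18 and 14.47, whereas 6 of 7 acinar markers, 5 of 6 fibroblast markers and 5 of 6 immune and endothelial markers lay below 5.16 on all arrays. The immune and endothelial list summed to 22.7 to 23.2 log2 after Hlxb9 siRNA and 22.3 to 23.4 after control siRNA, and its exception Cd68, a macrophage gene named after its values were seen, read 0.54 higher (unadjusted p = 0.00338). The other islet hormone genes were not low, with Gcg at 12.82 to 13.15 and Sst at 12.54 to 13.48. Ppy, the pancreatic polypeptide gene, read 10.95, 10.76 and 8.55 log2 after Hlxb9 siRNA, against 9.86, 9.68 and 7.32 after control siRNA. It was higher by 1.08, 1.08 and 1.23 within arrays of equal number, a difference of 1.13 ± 0.81 (SE, limma adjusted p = 0.737, or 0.478 with the replicate block), which was 0.32 without control replicate 3. The part of these markers in the results was not tested. Control replicate 3 stood apart: its correlations with the other arrays were 0.9877 to 0.9907, against 0.9948 or higher among the others, and its Gapdh control signal at the 3′ end was 2.13 log2 above that at the 5′ end, where the remaining arrays gave 0.65 to 0.78. For most of the differences that moved by over 1.5 times without this array, both values are given. The fit without it still holds Hlxb9 siRNA replicate 3, so the groups then differ in their array numbers. Deviations shared by arrays of equal number therefore enter the values of that fit. Fewer cells of a type and less RNA per cell cannot be told apart in such bulk samples, and 3 arrays a group limit the precision of every value.

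The promoters hold short sequence motifs that some of these genes share. RefSeq promoter windows (assembly GRCm38.p6), from 250 bases before to 50 after the annotated start, were found for 35 of the 39 genes, all but Atf6, Hyou1, Manf and Derl1. They were searched on both strands for the ER stress response element (ERSE, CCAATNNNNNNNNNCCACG), bound by NF-Y and ATF6, and for its variant ERSE-II (ATTGGNCCACG). The core of the unfolded protein response element (TGACGTGG), bound by XBP1 and ATF6, and the core of the C/EBP-ATF response element (CARE, TGATGNAA), bound by ATF4 dimers, were searched too. The ERSE occurred in 9 of the 35 windows and in 0.137% of the 27025 genes with a window. ERSE-II occurred in 2 of the 35, against 0.0444% of all genes. The CARE core occurred in 5, against 4.51%, and TGACGTGG in 0, against 0.714%. None of the matches in these windows overlapped a match of another of the motifs. Only exact matches were counted, so sites that differ from a motif at a fixed base are not marked. Hspa5, whose product is the central ER chaperone BiP, is shown with the 250 bases before its start, the fixed bases of its exact ERSE match in capitals.
Hspa5, chr2:34771840-34772089, plus strand: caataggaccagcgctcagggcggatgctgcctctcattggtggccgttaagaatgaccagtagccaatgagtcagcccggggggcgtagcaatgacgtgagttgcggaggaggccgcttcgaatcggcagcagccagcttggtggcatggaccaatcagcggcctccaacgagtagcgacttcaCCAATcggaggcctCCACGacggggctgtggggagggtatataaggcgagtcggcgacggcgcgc

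The other matches that lie before the start are shown with 12 bases on either side, where the capitals mark the fixed bases of ERSE or ERSE-II and those reading CGTGG and then ATTGG hold the element on the opposite strand. They show one element recurring before genes of different function, chaperones as well as the ubiquitin ligase gene Syvn1 and the derlin gene Derl3. The ERSE-II match of Dnajb11 lies after its start and is not printed.
Dnajc3, chr14:118937815-118937857, plus strand: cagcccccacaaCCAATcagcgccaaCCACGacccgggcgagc
Canx, chr11:50325788-50325830, minus strand: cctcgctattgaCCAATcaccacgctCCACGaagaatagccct
Hsp90b1 upstream match, chr10:86705626-86705668, minus strand: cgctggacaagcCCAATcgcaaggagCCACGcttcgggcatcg
Hsp90b1 downstream match, chr10:86705521-86705563, minus strand: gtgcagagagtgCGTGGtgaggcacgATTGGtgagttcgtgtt
Calr, chr8:84847063-84847105, minus strand: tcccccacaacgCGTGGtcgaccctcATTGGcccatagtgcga
Pdia6, chr12:17266479-17266521, plus strand: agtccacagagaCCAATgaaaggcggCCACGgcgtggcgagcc
Creld2, chr15:88819508-88819550, plus strand: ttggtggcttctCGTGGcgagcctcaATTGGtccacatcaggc
Syvn1, chr19:6046520-6046562, plus strand: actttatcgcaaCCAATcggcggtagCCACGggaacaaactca
Derl3, chr10:75893230-75893272, plus strand: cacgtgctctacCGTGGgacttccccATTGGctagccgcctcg
Herpud1 ERSE-II, chr8:94386365-94386399, plus strand: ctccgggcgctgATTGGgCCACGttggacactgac

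The CARE core marks a different set of genes, and the capitals are its fixed bases, reading TT and then CATCA where the element lies on the opposite strand. The Herpud1 window holds both a CARE core and an ERSE-II. The Trib3 match lies after its start and is not printed.
Atf3, chr1:191183424-191183455, minus strand: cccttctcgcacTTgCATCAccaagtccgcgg
Chac1, chr2:119351037-119351068, plus strand: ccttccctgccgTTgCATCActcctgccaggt
Asns, chr6:7693213-7693244, minus strand: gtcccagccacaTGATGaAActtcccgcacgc
Herpud1, chr8:94386305-94386336, plus strand: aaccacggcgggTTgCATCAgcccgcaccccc

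After Hlxb9 siRNA, 31 of the 39 genes read lower than after control siRNA and 8 read higher, while 49.4% of all 18193 genes were lower and 50.6% higher. The differences were small, from -0.44 log2 for Trib3 to 0.18 for Edem2, with a median of -0.06 against 0.0023 for all genes. The 39 genes are bright, and with dim probe sets left out 41.5% of the genes kept were lower, with a median of 0.0365. No gene passed the test over all probe sets (limma adjusted p from 0.645 to 0.999), and 0% of the 45037 probe sets and 0% of the genes did, although 1738 probe sets were higher and 1692 lower at an unadjusted p of 0.05. At that unadjusted level, 5 of the 39 were lower (Xbp1, Ern1, Dnajc3, Derl1 and Atf3), against 3.74% of all genes. None of the 39 was higher at that p, against 4.21%. When Hlxb9 siRNA replicate 1, 2 or 3 was left out, the 5 became 1, 3 and 1 of the 39, against 1.61%, 1.95% and 3.50% of all genes. When control replicate 1, 2 or 3 was left out, they became 2, 2 and 4, against 5.41%, 2.74% and 3.36%, so several of these shares lie near those of all genes. Every Hlxb9 siRNA array read lower than every control for 7 of the 39, against 7.75% of all genes, and higher than every control for 0, against 9.55%. Within arrays of equal number, all 3 differences were negative for 18 of the 39, against 16.5% of all genes, and positive for 2, Pdia3 and Creld2, against 19.0%. Since no gene passed, the values of single genes describe these arrays and are not calls. Without control replicate 3, 33 of the 39 were lower, against 43.3% of all genes, with a median of -0.098 against 0.027 for all genes.

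**Figure D1:**
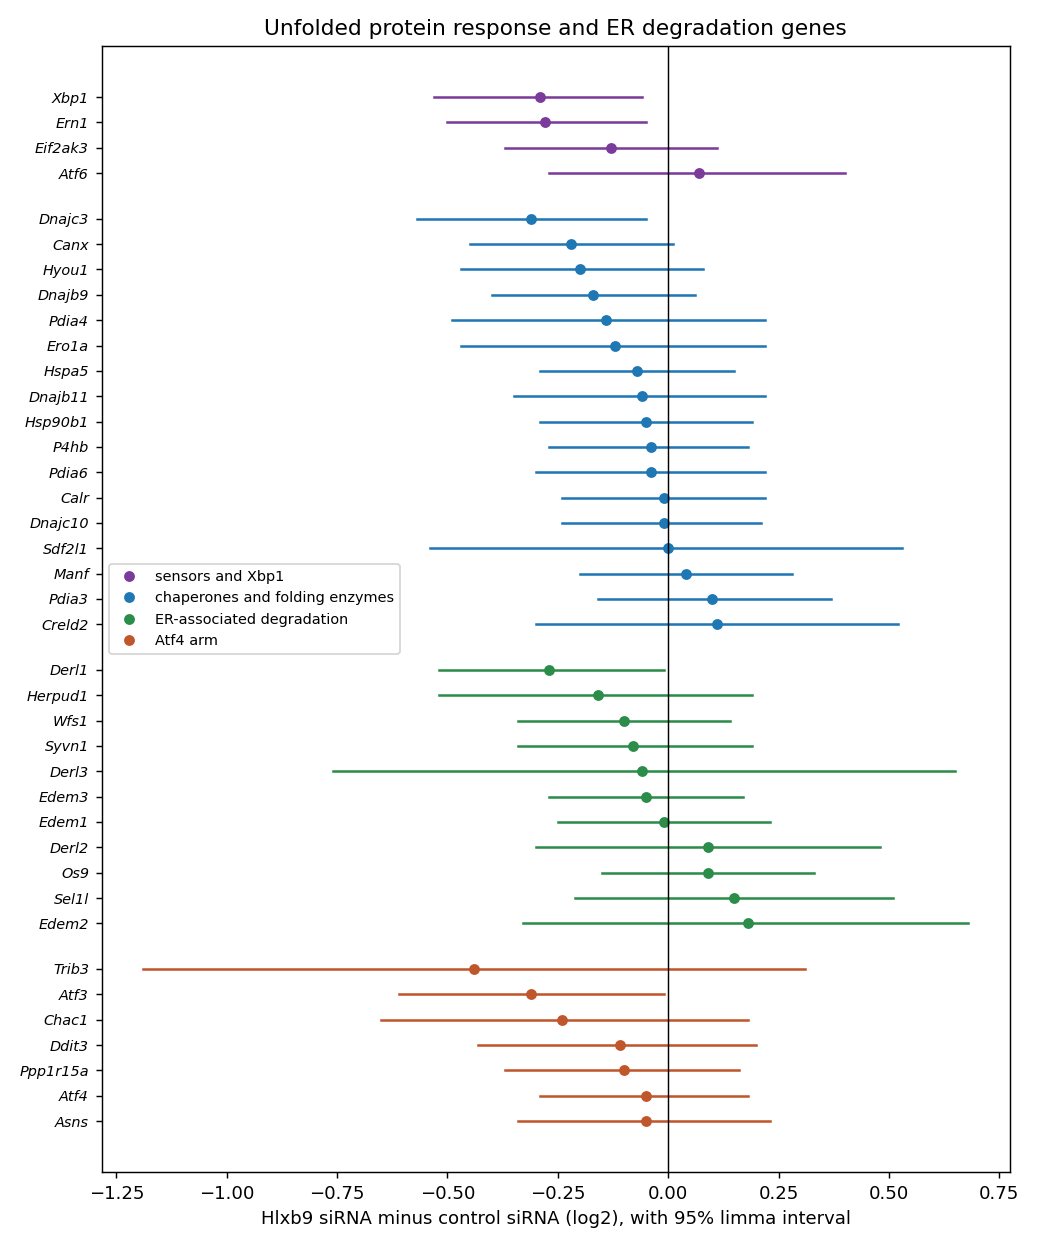
Difference between Hlxb9 siRNA and control siRNA in log2 for each of the 39 genes, grouped by arm and sorted within it, with 95% limma intervals (n = 3 arrays each). The intervals of Xbp1, Ern1, Dnajc3, Derl1 and Atf3 lie below 0 before adjustment over all probe sets, and those of the other 34 genes include 0.

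Among the sensors and Xbp1, the signals of Xbp1 and Ern1 were lower on every Hlxb9 siRNA array. Xbp1 read 10.61, 10.50 and 10.56 log2 after Hlxb9 siRNA, against 10.93, 10.75 and 10.86 after control siRNA. The groups did not overlap, and the difference of -0.29 ± 0.10 (SE) is 1.22-fold lower (unadjusted p = 0.0214, limma adjusted p = 0.645). Its 3 other probe sets differed by -0.35, -0.22 and -0.05, so all 4 were lower. The spliced and unspliced forms of Xbp1 were not told apart here. Ern1, the kinase and nuclease that splices Xbp1, read 10.29, 10.42 and 10.32 log2 after Hlxb9 siRNA, against 10.68, 10.58 and 10.60 after control siRNA. These groups did not overlap either, with a difference of -0.28 ± 0.10 (unadjusted p = 0.0238, limma adjusted p = 0.645). The 4 other probe sets of Ern1 differed by -0.18 to -0.14, and the dimmest of them averaged 4.63 log2. Without control replicate 3 the differences were -0.28 for Xbp1 and -0.29 for Ern1.

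The remaining sensors differed by less. Eif2ak3, which encodes PERK, read 9.22, 9.33 and 9.10 log2 after Hlxb9 siRNA, against 9.38, 9.35 and 9.30 after control siRNA. Its Hlxb9 siRNA replicate 2 lay between the controls, and the difference was -0.13 ± 0.10 (SE). The other probe sets of Eif2ak3 differed by -0.35, on a dim one averaging 4.31 log2, and by -0.12. Atf6 read 10.35, 10.43 and 10.35 log2 after Hlxb9 siRNA, against 10.54, 10.38 and 10.02 after control siRNA. The Hlxb9 siRNA arrays lay within the range of the controls, whose lowest value was that of control replicate 3. The difference of Atf6 was 0.07 ± 0.14 (SE), and it was -0.08 without that array. The 4 genes of this group had a median of -0.20, and -0.22 without control replicate 3.

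**Figure D2:**
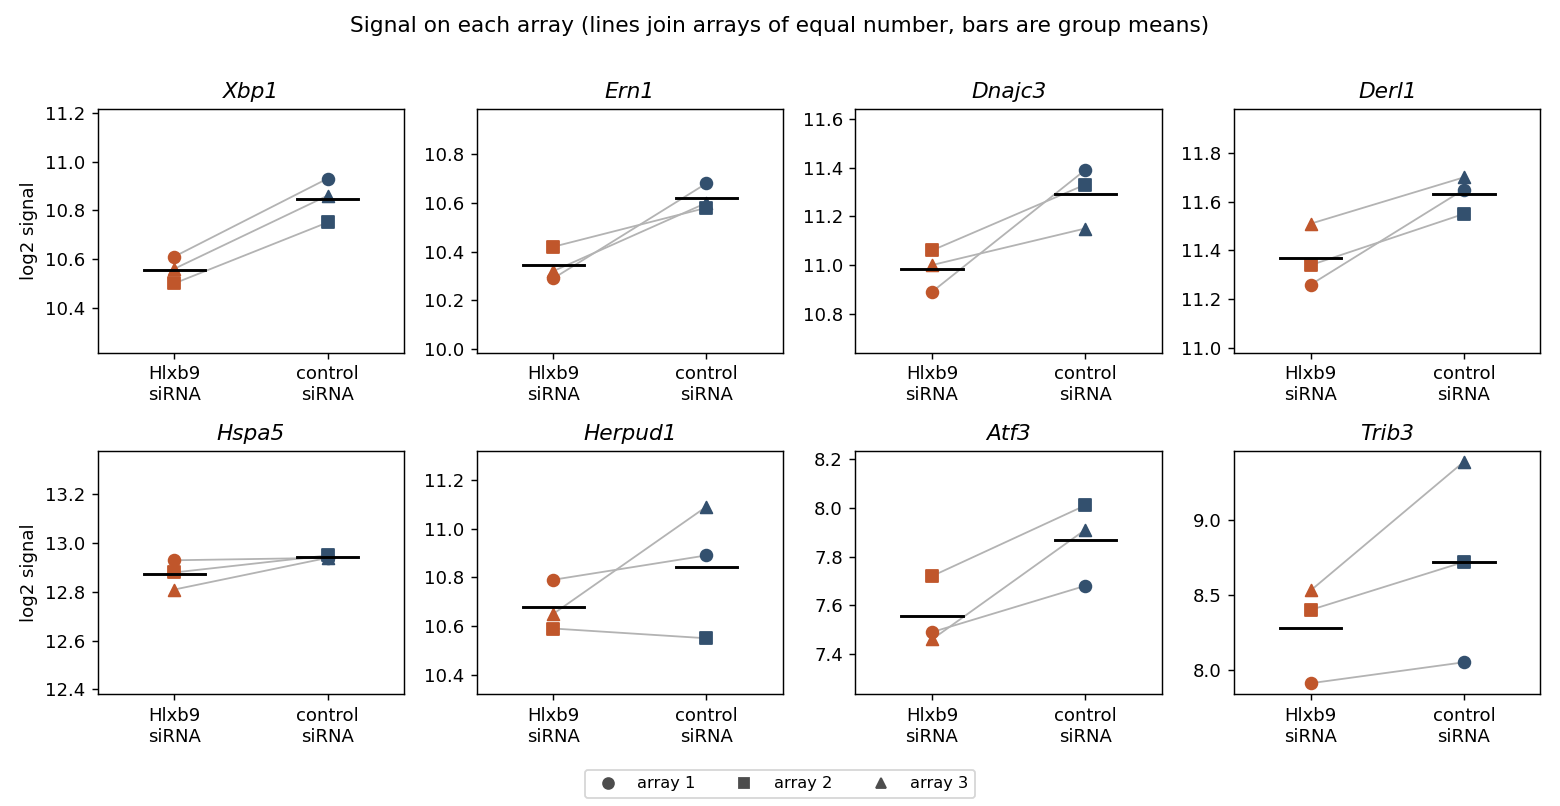
Log2 signal of 8 genes on each array, with Hlxb9 siRNA on the left and control siRNA on the right, lines joining arrays of equal number and bars at the group means. The groups of Xbp1, Ern1, Dnajc3, Derl1 and Hspa5 do not overlap, whereas those of Herpud1, Atf3 and Trib3 do.

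Of the 17 chaperones and folding enzymes, 14 read lower and 3 higher, with a median of -0.05, or -0.11 without control replicate 3, and 1 (Dnajc3) had an unadjusted p under 0.05. Dnajc3 encodes the ER co-chaperone known as p58IPK, which assists BiP. It read 10.89, 11.06 and 11.00 log2 after Hlxb9 siRNA, against 11.39, 11.33 and 11.15 after control siRNA. The groups did not overlap and the difference was -0.31 ± 0.11 (SE, unadjusted p = 0.0242, limma adjusted p = 0.645), or -0.38 without control replicate 3. Its 4 other probe sets were mixed, with differences from -0.58 to 0.04, but from -0.81 to -0.07 without control replicate 3. Dnajb9, which encodes the BiP co-chaperone ERdj4, read 11.73, 11.70 and 11.67 after Hlxb9 siRNA, against 11.94, 11.78 and 11.90 after control siRNA, a difference of -0.17 ± 0.10 without overlap. Canx, the lectin chaperone calnexin, differed by -0.22 ± 0.10 (SE), also without overlap, though its other probe sets stood at -0.01 and 0.08. Without control replicate 3, Canx stood at -0.19 and those probe sets at -0.14 and -0.13. Hyou1, a nucleotide exchange factor for BiP, differed by -0.20 ± 0.12, with its other probe sets at 0.07 and 0.19. Without control replicate 3, Hyou1 stood at -0.28 and those probe sets at -0.28 and 0.06.

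The most familiar chaperones differed little. Hspa5 read 12.93, 12.88 and 12.81 log2 after Hlxb9 siRNA, against 12.94, 12.95 and 12.94 after control siRNA. The groups did not overlap, yet the difference was only -0.07 ± 0.09 (SE), and its 95% interval ran from -0.29 to 0.15. A dimmer probe set of Hspa5, of the _x_at type whose probes can bind related sequences, differed by -0.76, or -0.46 without control replicate 3, and the other bright one by -0.10. With the mean of its probe sets Hspa5 differed by -0.31 (unadjusted p = 0.0207, limma adjusted p = 0.605). Hsp90b1, the ER form of the Hsp90 chaperone, read 12.64, 12.59 and 12.59 after Hlxb9 siRNA, against 12.76, 12.68 and 12.54 after control siRNA. Here control replicate 3 was the lowest array, and the difference was -0.05 ± 0.10, or -0.11 without it. The calreticulin gene Calr differed by -0.01 ± 0.10, with an interval of -0.24 to 0.22, and by -0.02 without control replicate 3.

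The protein disulphide isomerases and their partners were split. P4hb differed by -0.04, Pdia6 by -0.04, Pdia4 by -0.14 and Pdia3, the isomerase that works with calnexin and calreticulin, by 0.10. Ero1a, the oxidase that recharges these isomerases, differed by -0.12 ± 0.15 (SE). The ER DnaJ genes Dnajb11 and Dnajc10 stood at -0.06 and -0.01. Without control replicate 3, Pdia3 stood at 0.03, P4hb at -0.08, Dnajb11 at -0.16 and Manf at 0.02. The secreted or luminal stress proteins Creld2, Manf and Sdf2l1 stood at 0.11, 0.04 and -0.0024, and Manf at -0.01 after median centring of the arrays. Sdf2l1 read 10.44, 10.46 and 10.12 log2 after Hlxb9 siRNA, against 10.59, 10.63 and 9.80 after control siRNA. Its lowest value belonged to control replicate 3, and without that array the difference of Sdf2l1 was -0.27 and that of Creld2 -0.05. Control replicate 3 was the lowest of the 3 controls for 11 of these 17 genes, against 30.8% of all genes.

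In ER-associated degradation, 7 of 11 genes read lower and 4 higher, with a median of -0.05, which was -0.07 without control replicate 3 and 0.04 without Hlxb9 siRNA replicate 3. Derl1, a derlin of the retrotranslocation channel, read 11.26, 11.34 and 11.51 log2 after Hlxb9 siRNA, against 11.65, 11.55 and 11.70 after control siRNA. The groups did not overlap and the difference was -0.27 ± 0.11 (SE, unadjusted p = 0.0421, limma adjusted p = 0.653). The 3 other probe sets of Derl1 stood at -0.02, 0.05 and 0.19, and the mean over its probe sets differed by -0.01. Its relatives Derl2 and Derl3 differed by 0.09 ± 0.17 and -0.06 ± 0.30, and by -0.10 and -0.22 without control replicate 3. Derl2 read 12.16, 12.27 and 12.35 after Hlxb9 siRNA, against 12.38, 12.34 and 11.79 after control siRNA, so that only control replicate 3 lay below the Hlxb9 siRNA arrays.

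Herpud1, a stress-induced scaffold of the ubiquitin ligase complex, read 10.79, 10.59 and 10.65 log2 after Hlxb9 siRNA, against 10.89, 10.55 and 11.09 after control siRNA. The groups overlapped, control replicate 2 being the lowest array, and the difference of -0.16 ± 0.15 (SE) was -0.04 without control replicate 3. Wfs1, the wolframin gene of the ER membrane, read 10.47, 10.51 and 10.32 after Hlxb9 siRNA, against 10.47, 10.59 and 10.55 after control siRNA, a difference of -0.10 ± 0.10. Sel1l and Syvn1, which encode the adaptor and the ligase of the complex, differed by 0.15 and -0.08. Sel1l stood at -0.02 without control replicate 3, where it read 11.10 against 11.53 to 11.65 on all other arrays. The mannosidase-like genes Edem1, Edem2 and Edem3, whose products mark glycoproteins for disposal, differed by -0.01, 0.18 and -0.05. Without control replicate 3, Edem1 stood at 0.03 and Edem2 at -0.07. Os9, a lectin that delivers such glycoproteins to the ligase, differed by 0.09 ± 0.10, or 0.04 without that array.

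All 7 genes of the Atf4 arm read lower, with a median of -0.11, but 6 of them read highest of all 6 arrays on control replicate 3, as 35.6% of all genes did. Without that array 6 of the 7 were still lower and the median was -0.02, in a fit that keeps Hlxb9 siRNA replicate 3. Within arrays of equal number, all 3 differences were negative for 6 of the 7, against 16.5% of all genes. Atf3, a stress-induced transcription factor, read 7.49, 7.72 and 7.46 log2 after Hlxb9 siRNA, against 7.68, 8.01 and 7.91 after control siRNA. Hlxb9 siRNA replicate 2 lay above control replicate 1, and the difference was -0.31 ± 0.13 (SE, unadjusted p = 0.0470, limma adjusted p = 0.653), or -0.28 without control replicate 3. Trib3, a pseudokinase induced by ATF4 and CHOP, read 7.91, 8.40 and 8.53 after Hlxb9 siRNA, against 8.05, 8.72 and 9.39 after control siRNA. The groups overlapped widely. Its difference of -0.44 ± 0.32 was -0.11 without control replicate 3, and within arrays of equal number it was -0.15, -0.33 and -0.86.

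Ddit3, which encodes the transcription factor CHOP, read 9.01, 9.06 and 8.97 log2 after Hlxb9 siRNA, against 8.88, 9.17 and 9.34 after control siRNA. Its Hlxb9 siRNA arrays lay within the range of the controls, with a difference of -0.11 ± 0.13 (SE), or -0.01 without control replicate 3. Chac1, a glutathione-degrading enzyme, differed by -0.24 ± 0.18, or -0.12 without that array. Within arrays of equal number Chac1 differed by -0.21, -0.25 and -0.25. The asparagine synthetase gene Asns stood at -0.05 and Ppp1r15a, the subunit that directs phosphatase to the initiation factor, at -0.10. Their values without control replicate 3 were 0.02 and -0.02. Atf4 itself depended on the probe set read. The brightest probe set of Atf4 read 12.36, 12.48 and 12.44 after Hlxb9 siRNA, against 12.38, 12.52 and 12.54 after control siRNA, a difference of -0.05 ± 0.10. Its _x_at probe set read 10.84, 10.97 and 11.41 after Hlxb9 siRNA, against 11.46, 11.87 and 12.19 after control siRNA, a difference of -0.77 ± 0.22 (unadjusted p = 0.00812, limma adjusted p = 0.645), and a dim one differed by -0.60. Without control replicate 3 these were -0.02, -0.59 and -0.46.

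**Figure D3:**
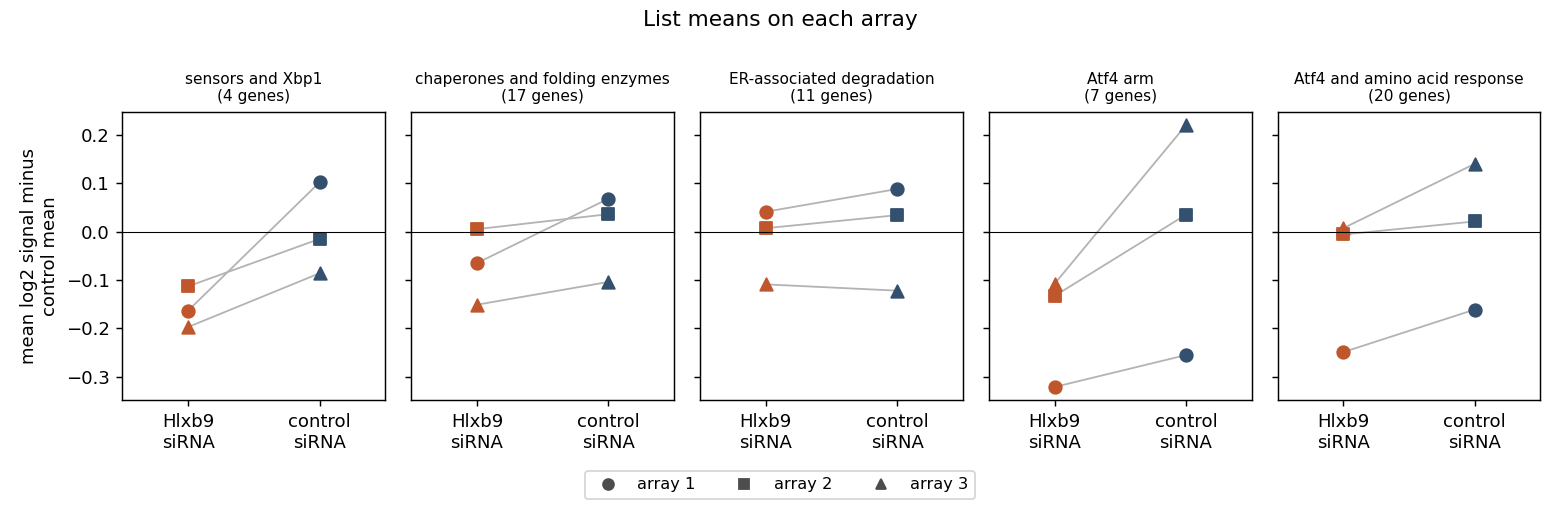
Mean log2 signal of each arm, and of a wider list of ATF4 and amino acid response genes, minus the mean of the controls, on each array, with Hlxb9 siRNA on the left. All 3 Hlxb9 siRNA arrays lie below the controls for the sensors and Xbp1, while in the other panels the groups overlap.

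Averaged over genes and set against the control mean, the sensors and Xbp1 stood at -0.163, -0.113 and -0.197 log2 after Hlxb9 siRNA, against 0.102, -0.015 and -0.086 after control siRNA. The chaperones and folding enzymes stood at -0.065, 0.005 and -0.151 after Hlxb9 siRNA, against 0.068, 0.036 and -0.104 after control siRNA. The groups separated for the sensors and Xbp1 but overlapped for the chaperones, as the plot of list means shows. The Atf4 arm stood at -0.321, -0.133 and -0.108 after Hlxb9 siRNA, against -0.255, 0.035 and 0.220 after control siRNA. Within arrays of equal number the Atf4 arm differed by -0.066, -0.168 and -0.328 and the chaperones by -0.133, -0.031 and -0.047, so both were lower in every pair although their groups overlapped. The degradation genes stood at 0.041, 0.007 and -0.109 after Hlxb9 siRNA, against 0.088, 0.034 and -0.122 after control siRNA, and the groups overlapped.

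Other probe sets of the same genes gave further readings. The 39 genes have 89 probe sets, and 28 genes have more than 1. In 12 of these 28 every probe set read lower, in 4 every probe set read higher, and in 12 the directions differed. Among the 50 probe sets that were not the brightest of their gene, 30 read lower, with a median of -0.02. These counts are from all 6 arrays, and some directions changed without control replicate 3. A probe set of Hyou1 then moved from 0.07 to -0.28 and one of Edem3 from 0.05 to -0.38, whereas one of Derl1 moved from -0.02 to 0.10. At an unadjusted p of 0.05, 7 of the 50 were lower and 0 higher, against 1692 lower and 1738 higher of all 45037 probe sets. The 7 include dim probe sets of Atf4 and Pdia4, with averages of 4.27 and 2.70 log2, and _x_at probe sets of Atf4 and Hspa5. In the plot of all probe sets, all 5 of Ern1, all 3 of Eif2ak3 and all 4 of Xbp1 were lower. The 3 of Atf6 were mixed, and those of Ern1 and Eif2ak3 include dim ones, averaging 4.63 and 4.31 log2. The other probe set of Hsp90b1 read 11.94, 12.03 and 11.89 log2 after Hlxb9 siRNA, against 12.25, 12.14 and 12.18 after control siRNA, a difference of -0.24 ± 0.10 (SE, unadjusted p = 0.0431) where the brightest gave -0.05.

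**Figure D4:**
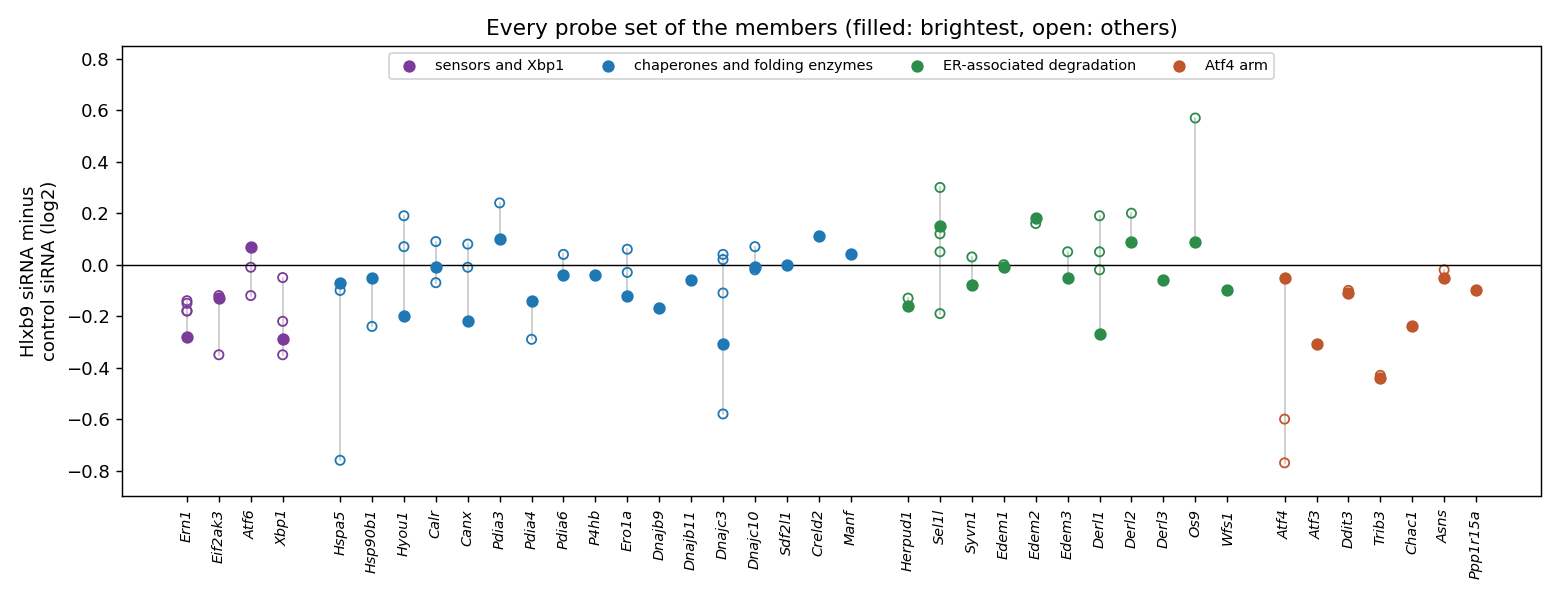
Difference between Hlxb9 siRNA and control siRNA in log2 for all 89 probe sets of the 39 genes, filled for the brightest probe set of a gene and open for the others. Probe sets of Ern1, Eif2ak3 and Xbp1 all lie below 0, while those of Dnajc3, Derl1 and Sel1l lie on both sides. The Sel1l probe set below 0 is dim, with an average of 4.95 log2. Those of Dnajc3 above 0 stand at 0.02 and 0.04, or -0.07 and -0.19 without control replicate 3.

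The genes were also grouped by promoter motif. Of the 9 genes with an ERSE, 8 read lower, with a median of -0.06, where 49.4% of all genes were lower. The remaining gene with an ERSE, Creld2, stood at 0.11, or -0.05 without control replicate 3. Of the 24 with a window and neither ERSE nor ERSE-II, 19 read lower, with a median of -0.08. Dnajc3 and Hspa5 carry the same element, yet differed by -0.31 and -0.07. All 5 genes with a CARE core (Atf3, Trib3, Chac1, Asns and Herpud1) read lower, with a median of -0.24. In that order they stood at -0.28, -0.11, -0.12, 0.02 and -0.04 without control replicate 3. The motif matches are a description of sequence only.

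Wider lists of the pathway were read in the same way. In a list of 18 further folding genes, 6 read lower and 12 higher, with a median of 0.03, or -0.0044 without control replicate 3. The smallest unadjusted p in it belonged to Dnajc1, an ER membrane DnaJ protein, at 0.28 ± 0.15 (SE), and next to Erp29 at 0.23 ± 0.17, and without control replicate 3 these were 0.12 and 0.08. Of 16 measured degradation genes of 17 listed, 8 read lower and 8 higher, with a median of 0.0021, or -0.0315 without control replicate 3. Selenos, which anchors the extracting ATPase at the ER membrane, differed by -0.22 ± 0.11, and its other probe sets by -0.09 and 0.01. The ubiquitin ligase gene Rnf139 differed by 0.28 ± 0.15, or 0.13 without control replicate 3, and its other probe set by -0.01. Of 20 genes of the ATF4 and amino acid response, 12 read lower, with a median of -0.11, which was 0.03 without control replicate 3. Eif4ebp1, a repressor of translation, differed by -0.51 ± 0.31, or -0.17 without that array, and its other probe sets by -0.29 and 0.0. Sesn2 differed by -0.36 ± 0.21, and the other probe set of Sesn2 by 0.41.

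Among 14 measured stress transducers of 15 listed, 5 read lower and 9 higher, with a median of 0.07, or 0.02 without control replicate 3. At an unadjusted p of 0.05, 3 of the 14 were higher, against 4.21% of all genes. Rtcb, the RNA ligase that joins the Xbp1 exons after IRE1 has cut them, read 11.88, 11.82 and 11.77 log2 after Hlxb9 siRNA, against 11.67, 11.60 and 11.42 after control siRNA. The groups did not overlap, the difference was 0.26 ± 0.11 (SE, unadjusted p = 0.0429, limma adjusted p = 0.653), and its other probe sets differed by 0.24 and 0.31. Rtcb thus read in the opposite direction to Xbp1 and Ern1. Crebrf, a regulator of the CREB3 family, differed by 0.38 ± 0.16 and Txnip, a glucose-responsive thioredoxin inhibitor named after its values were seen, by 0.38 ± 0.16. Without control replicate 3 these were 0.27 and 0.24, and Rtcb stood at 0.19. The unadjusted limma p in that fit was 0.0826 for Rtcb, 0.121 for Crebrf and 0.127 for Txnip, each above 0.05. Of 5 measured substrates of IRE1-dependent decay among 6 listed, 3 read lower, and 3 were below 5.16 on all arrays, including Col6a1 (-0.21) and Sparc (-0.27, or -0.18 without control replicate 3), which had the smallest unadjusted p.

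With array weights, which favour the arrays numbered 2 (weights of 2.91 and 4.46, against 0.204 to 0.792 for the others), limma called 1.02% of all genes lower and 1.48% higher, and 0 of the 39. The smallest adjusted p among the 39 in that fit was 0.058, for Dnajc3, whose difference was then -0.32 ± 0.07 (SE). In the same fit 6 of the 39 were lower at an unadjusted p of 0.05, against 11.3% of all genes.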

How the data were processed

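RNA of MIN6 cells was measured on 6 mouse expression arrays, 3 per group. The deposited values are log2 signals per probe set, made by the authors with RMA, and Partek is named too, per the submitters' processing notes, without versions. RMA forces the arrays to near equal distributions, so a shift shared by most genes would not be seen. Of 45101 probe sets, 64 controls were left out and 45037 tested with limma 3.58.1 (R 4.3.3, statmod 1.5.0), with no covariate and Benjamini-Hochberg adjustment over all of them at 0.05. Symbols came from GEO's platform annotation, with 34945 probe sets naming 1 gene, 932 several and 9160 none, and each gene was read by its brightest probe set. Promoters were searched in Python 3.11.15.

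Arrays of equal number deviated together (r = 0.155, 0.165 and 0.202), against 0.072 or less between different numbers. Differences within arrays of equal number were therefore given too, on these correlations alone. The main fit, with its SE, intervals and p-values, was unpaired, and the replicate block was an alternative. With that block the unadjusted limma p was 0.0304 against 0.208 for Trib3, and 0.0531 against 0.0421 for Derl1. The other alternatives were median centring, repeated quantile normalization, an offset, omission of dim probe sets, a trended robust prior, array weights, other probe set choices and leaving out each array. The fit was tested on simulated data.

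The members and lists were chosen with earlier results of these data known. Array values were given for members with an unadjusted p under 0.05 and for Xbp1, Ern1, Eif2ak3, Atf6, Hspa5, Hsp90b1, Herpud1, Ddit3, Atf4, Trib3 and Wfs1, and, after their values were seen, for Dnajb9, Sdf2l1 and Derl2. From each wider list the 2 genes with the smallest unadjusted p were named. The p-values assume that arrays of a group came from separate transfections.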

Additional observations from a re-analysis of the deposited data

How the results depend on the processing

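None of the 39 genes passed an adjusted p of 0.05 with limma under any alternative, and 540 of 579 member values kept their direction. The 39 that changed sign belonged to 19 genes, and the other 20 genes kept theirs. The cause of these changes was not tested. Array weights called 1132 probe sets, against 0 otherwise. The replicate block left 0 probe sets called and 5 members lower at the unadjusted level of 0.05, with Trib3 in place of Derl1, and changed no call. Leaving out 1 array gave 1 to 4 such members, against 1.61% to 5.41% of all genes in those fits. The median of all members was -0.117 after median centring, when that of all genes was -0.0499. The median of the wider degradation list was 0.0605 with the mean of probe sets, that of the stress transducers 0.0148 after centring, and that of the IRE1 decay substrates 0.108 with dim probe sets left out, since only 2 of 5 then remained.

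With the mean of probe sets Hspa5 was -0.31 and joined Xbp1, Atf4 and Atf3 under an unadjusted level of 0.05. In that setting Hyou1 was 0.02, Calr 0.00133, Pdia6 0.00145, Dnajc10 0.01 and Atf6 -0.02. With plain _at probe sets Hyou1 was 0.07, Canx 0.08, Dnajc10 0.07 and Syvn1 0.03. Array weights gave Calr 0.05, Pdia4 0.12, Dnajc10 0.01, Creld2 -0.02, Herpud1 0.02, Edem1 0.03, Edem2 -0.15, Derl2 -0.06 and Derl3 0.01. Centring gave Manf -0.01. Leaving out 1 array gave ranges of -0.05 to 0.03 for Calr, -0.09 to 0.05 for Pdia6, -0.16 to 0.0046 for Dnajb11, -0.04 to 0.02 for Dnajc10, -0.27 to 0.14 for Sdf2l1, -0.05 to 0.24 for Creld2, -0.08 to 0.18 for Atf6, -0.14 to 0.02 for Asns, -0.02 to 0.26 for Sel1l, -0.04 to 0.04 for Edem1, -0.07 to 0.38 for Edem2, -0.10 to 0.19 for Derl2 and -0.31 to 0.28 for Derl3. The 39 brightest probe sets, chosen for their brightness, all lay above the median of all probe set means, while 6 of the 89 probe sets lay below it. Signal over background was not tested.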

Other observations

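A run of ATF4 target genes was low on the array numbered 1 in each group. Array 1 was the lowest of its group in both groups for 13 of 20 genes of the ATF4 and amino acid response, which include Psat1, Phgdh and Psph of serine synthesis and the amino acid transporter genes Slc7a11, Slc7a5 and Slc3a2. The same held for 4 of the 7 Atf4 arm genes (Atf4, Trib3, Chac1 and Asns), for 14.0% of all genes, and for 0 of the 17 chaperones and folding enzymes, 0 of the 4 sensors and Xbp1 and 0 of the 11 degradation genes. The mean of the amino acid list was -0.249, -0.006 and 0.007 log2 on the Hlxb9 siRNA arrays 1, 2 and 3, against -0.161, 0.021 and 0.140 on the control arrays. This pattern was noticed in the data, and its cause was not tested.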
